A study of Rattus norvegicus with 4 samples.

Results

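The miR-29 family of the rat consists of rno-miR-29a-3p, rno-miR-29b-3p and rno-miR-29c-3p, and these 3 mature miRNAs were picked by name from the 739 miRNA names of the deposited count table. All 3 had reads in each of the 4 libraries. Small RNA was sequenced from chondrocytes of male Sprague Dawley rats that were taken from costochondral cartilage, cultured as confluent layers with ascorbic acid and used at passage 4, and from the matrix vesicles (MVs) that these cultures produced. MVs are small membrane-bound particles held in the extracellular matrix, and here they were spun down from the trypsin digest of the cell layer. There was 1 library each of resting zone cells (RC-cells), resting zone vesicles (RC-MVs), growth zone cells (GC-cells) and growth zone vesicles (GC-MVs). The labels name no treatment and no genetic change for any group. The number of animals behind a library is not given in the sources used here.

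MicroRNAs of the miR-29 family lower the output of mRNAs that carry a site for their shared seed, which is bases 2 to 8 of the mature strand. They are best known for repressing genes of the extracellular matrix, among them the fibrillar collagens, elastin and fibrillin, and loss of miR-29 accompanies fibrosis in several organs. In bone-forming cells they act on matrix proteins and on inhibitors of Wnt signalling. Cartilage matrix is built on a collagen network, and it is in this matrix that MVs are found.

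The mature sequences are shown because the 3 members share every base of the seed and differ only behind it, which decides what the read counts can separate. They are from RefSeq (build GRCr8), written 5′ to 3′, with the seed in capitals.
rno-miR-29a-3p: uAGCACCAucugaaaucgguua
rno-miR-29b-3p: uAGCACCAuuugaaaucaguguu
rno-miR-29c-3p: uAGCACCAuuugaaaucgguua
Of the 693 mature rat miRNA names in that table, only these 3 had this seed. Counted from the 5′ end, rno-miR-29a-3p and rno-miR-29c-3p differed by the single substitution C10U. Between rno-miR-29a-3p and rno-miR-29b-3p the substitutions were C10U, G18A, U21G and A22U, and rno-miR-29b-3p was 1 base longer. The last 6 bases of rno-miR-29b-3p, AGUGUU, are known as a signal that directs this miRNA to the nucleus in cultured cells. The same ending was found in 2 of the 693 names (0.289%), the other being rno-miR-92b-5p.

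The family comes from 4 precursors in 2 pairs. Mir29a and Mir29b1 lie on the same strand of chromosome 4, and Mir29b2 and Mir29c lie on the same strand of chromosome 13, with no other annotated miRNA gene between the latter. Between Mir29a and Mir29b1 the table lists Mir3587, which is encoded on the opposite strand and had 0 reads in each library. The deposited table names the product of Mir29b2 "rno-miR-29b" and that of Mir29c "rno-miR-29c", without an arm, and marks their partners with a star. These older names were read as the 3p arms, and reads of both miR-29b loci were added. The other arms of the precursors are shown because their reads separate the 2 miR-29b precursors, which the 3p reads cannot, with bases 2 to 8 in capitals.
miR-29a-5p: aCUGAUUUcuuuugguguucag
miR-29b-1-5p: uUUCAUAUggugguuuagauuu
miR-29b-2-5p: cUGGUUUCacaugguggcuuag
miR-29c-5p: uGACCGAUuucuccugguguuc
None of these 4 seeds occurred in another of the 693 names.

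RC-cells gave 6517329 miRNA reads, GC-cells 7414467, RC-MVs 1108821 and GC-MVs 982543. Each count is given as a percent of these totals, which is a level relative to all miRNAs and not an amount per cell or vesicle. Each group being a single library, no difference in the sequencing data has a replicate check and no p-value was computed. Intervals are at the 95% level and cover counting error only. Reads are not independent molecules, so even this error can be larger than the intervals show. A ratio of percents was called different at 2-fold or more. The cartilage miRNAs miR-140 and miR-455 (4 of 4 mature forms with reads) made up between 0.526% and 1.00% of miRNA reads in the 4 libraries. miRNAs that mark other sources were near 0 in the cells and higher in the vesicles. The red cell markers miR-451-5p and miR-144-3p summed to 0.000107% in RC-cells and 0.000148% in GC-cells, but to 0.0744% in RC-MVs and 0.158% in GC-MVs, and the liver miRNA miR-122-5p reached 0.401% in RC-MVs and 1.14% in GC-MVs. The part of such material in the vesicle values below was not tested.

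rno-miR-29a-3p carried nearly all reads of the family. RC-cells had 29263 of its reads, GC-cells 30400, GC-MVs 3433 and RC-MVs 1647. As percents of all miRNA reads these were 0.449% (95% Wilson interval 0.444 to 0.454), 0.410% (0.405 to 0.415), 0.349% (0.338 to 0.361) and 0.149% (0.142 to 0.156), in the same order. The RC-MV library was thus far below the other libraries, and none of the 4 intervals overlapped. By rank it was the 28th most abundant miRNA in both cell libraries, the 31st in GC-MVs and the 58th in RC-MVs.

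rno-miR-29b-3p was far less abundant and had another order of levels. GC-MVs had 161 reads, GC-cells 627, RC-MVs 92 and RC-cells 497, which were 0.0164% (0.0140 to 0.0191), 0.00846% (0.00782 to 0.00914), 0.00830% (0.00677 to 0.0102) and 0.00763% (0.00698 to 0.00833). The GC-MV library stood above the other 3 libraries, whose intervals overlapped. rno-miR-29c-3p was the scarcest member, with 35 reads from RC-cells, 49 from GC-cells, 5 from RC-MVs and 9 from GC-MVs. Its percents lay between 0.000451% and 0.000916%, with intervals that overlapped in all 4 libraries, so no order could be given at this depth. Because it differs from the abundant rno-miR-29a-3p by 1 base, and the number of mismatches allowed in the alignment is not given in the sources used here, its reads are uncertain.

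**Figure D1:**
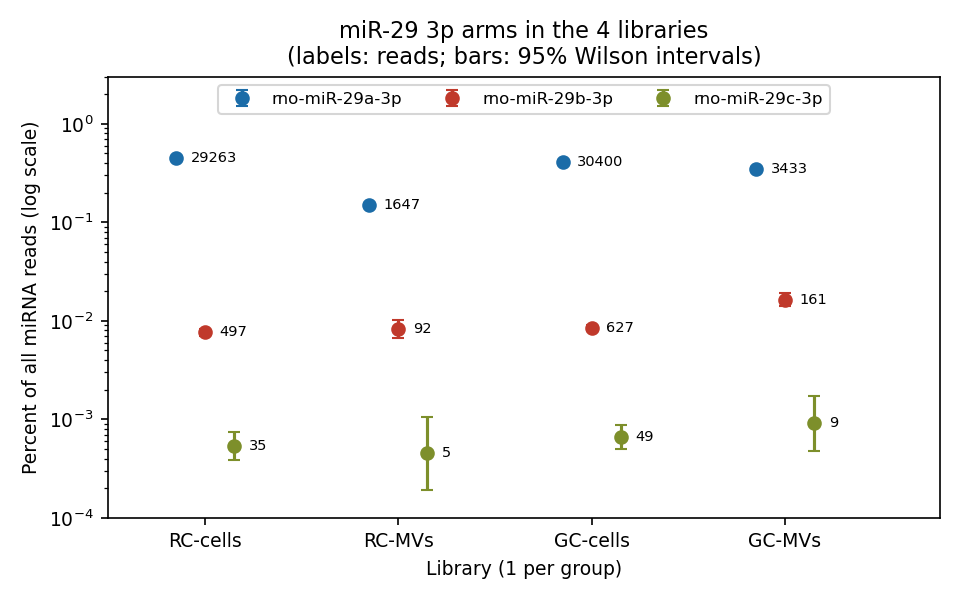
Percent of all miRNA reads (log scale) of each miR-29 3p arm in the 4 libraries, with the number of reads beside each point and bars for 95% Wilson intervals, which cover counting error only. rno-miR-29a-3p was lowest in RC-MVs at 0.149%, rno-miR-29b-3p was highest in GC-MVs at 0.0164%, and the intervals of rno-miR-29c-3p overlapped throughout.

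Reads of rno-miR-29b-3p were divided almost evenly between its 2 loci. Mir29b1 held 234 of 497 reads from RC-cells (47.1%, 42.7 to 51.5) and 316 of 627 from GC-cells (50.4%, 46.5 to 54.3). Of the vesicle reads it held 44 of 92 from RC-MVs (47.8%, 37.9 to 57.9) and 89 of 161 from GC-MVs (55.3%, 47.6 to 62.8). An even split was inside each of the 4 intervals. The mature strand is identical at both loci, so this split does not show how much each precursor was transcribed. Their 5p arms differ, and there the counts leaned to one locus, as miR-29b-1-5p had 18 and 11 reads in the resting and growth zone cells while miR-29b-2-5p had 1 and 4.

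In the resting zone, the family as a whole was lower in the vesicles than in the cells that produced them. The summed members made up 0.457% of the RC-cell and 0.157% of the RC-MV miRNA reads, a 2.91-fold lower share in RC-MVs (95% exact Clopper-Pearson interval 2.77 to 3.05). A correction of the ratios for the GC content of the mature strands, by a lowess curve over miRNAs with a sequence and 10 or more reads on both sides, moved the family ratio from 0.344 to 0.815 and ended this 2-fold call. Before correction the difference was that of rno-miR-29a-3p, whose share was 3.02-fold lower (2.88 to 3.18). For rno-miR-29b-3p the vesicle share was 1.09 times the cell share (0.861 to 1.36) and for rno-miR-29c-3p 0.840 times (0.257 to 2.15), and both intervals included 1. Hence 1 of 3 members was called lower and 0 of 3 higher, where 30.5% of the 413 miRNAs with reads in both libraries were called lower and 33.7% higher. The median log2 ratio was -0.25 for the members and 0.08 for all 413 miRNAs, and 21.1% of them had a lower ratio than rno-miR-29a-3p. With the GC correction the count was 0 lower and 2 higher of 3, at 0.743 for rno-miR-29a-3p, 4.88 for rno-miR-29b-3p and 3.13 for rno-miR-29c-3p, where 22.6% of 265 miRNAs were lower and 28.3% higher after the same correction. rno-miR-29c-3p, with 5 reads in RC-MVs, was below the limit of 10 reads and so was not among these 265 miRNAs.

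In the growth zone, the uncorrected level of the summed family in the vesicles was close to that in the cells. The family made up 0.419% of miRNA reads in GC-cells and 0.367% in GC-MVs, a 1.14-fold lower share in GC-MVs (1.10 to 1.18). rno-miR-29a-3p was 1.17-fold lower (1.13 to 1.22), which was under the 2-fold threshold. rno-miR-29b-3p was 1.94-fold higher in GC-MVs (1.62 to 2.31), just under the threshold, and the interval of rno-miR-29c-3p included 1 (ratio 1.39, 0.599 to 2.85). Thus 0 of 3 members was called in either direction, where 25.2% of 416 miRNAs were called lower in GC-MVs and 32.0% higher. The median log2 ratio was 0.47 for the members and 0.13 for all 416 miRNAs. The count depended on the processing, since rno-miR-29b-3p passed 2-fold under 3 of 8 alternatives, at 2.08 with totals that leave out 3 abundant miRNAs, 2.12 with the locus named -3p alone and 6.22 with the GC correction. The GC correction also gave 3.70 for rno-miR-29c-3p, a call (corrected background 14.7% lower and 27.5% higher of 251 miRNAs), and turned the direction of rno-miR-29a-3p to 1.38 and of the summed family to 1.48. With 9 reads in GC-MVs, rno-miR-29c-3p was not among these 251 miRNAs.

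Between the vesicles of the zones, all members leaned the same way. In RC-MVs the share of rno-miR-29a-3p was 2.35-fold below that in GC-MVs (2.22 to 2.50), that of rno-miR-29b-3p 1.98-fold lower (1.52 to 2.58) and that of rno-miR-29c-3p 2.03-fold lower (0.611 to 7.72), the last from 5 and 9 reads and with an interval that included 1. The summed family was 2.33-fold lower (2.20 to 2.47). With 2 of 3 members called lower and 0 of 3 higher, the background was 14.4% lower and 24.7% higher among 396 miRNAs. The median log2 ratio was -1.02 for the members and 0.15 for the 396 miRNAs, and 8.59% of them had a lower ratio than rno-miR-29a-3p. The GC correction left 0 of 3 members called, with ratios of 0.549, 0.637 and 0.628 for rno-miR-29a-3p, rno-miR-29b-3p and rno-miR-29c-3p and 0.553 for the family, where 12.6% of 246 miRNAs were lower and 16.3% higher after the same correction. These 246 miRNAs had 10 or more reads on both sides and did not include rno-miR-29c-3p. Adding 0.5 to each count ended the call of rno-miR-29c-3p (0.513). rno-miR-29b-3p became a call at 0.441 with TMM normalization, 0.424 with size factors, 0.327 with totals that leave out 3 abundant miRNAs and 0.438 with the locus named -3p alone. Between the cells of the zones no member was called, and 5.71% of 473 miRNAs were called lower and 13.7% higher in RC-cells. There the ratio of RC-cells to GC-cells was 1.10 for rno-miR-29a-3p (1.08 to 1.11), 0.902 for rno-miR-29b-3p (0.800 to 1.02) and 0.813 for rno-miR-29c-3p (0.511 to 1.28). The small difference of the summed family between the cells, 1.09-fold higher in RC-cells, changed direction with 3 other scalings, which gave ratios from 0.849 to 0.875.

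The cell to vesicle difference was set side by side for both zones. For rno-miR-29a-3p the ratio of vesicles to cells was 2.58 times as high in the growth zone as in the resting zone (2.42 to 2.74), and for rno-miR-29b-3p it was 1.78 times as high (1.34 to 2.36), both intervals being normal approximations on the log scale from the 4 counts. For rno-miR-29c-3p the corresponding value was 1.65 with an interval from 0.509 to 5.35. Of the 261 miRNAs that had 10 or more reads in every library, rno-miR-29a-3p had the 12th lowest and rno-miR-29b-3p the 48th lowest log2 difference between the zones (-1.36 and -0.83). The lower and upper quartiles of these miRNAs were -0.63 and 0.54. With the GC correction the resting zone ratio of the summed family was 0.551 of that of the growth zone in place of 0.393, which is less than 2-fold. The corrected value was 0.539 for rno-miR-29a-3p, also less than 2-fold, and 0.785 for rno-miR-29b-3p. With totals that leave out 3 abundant miRNAs, the growth zone ratio was 2.21 times as high for rno-miR-29b-3p and 2.05 times for rno-miR-29c-3p. The ranks are those of uncorrected ratios. No test of this difference between zones could be made with 1 library per group.

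**Figure D2:**
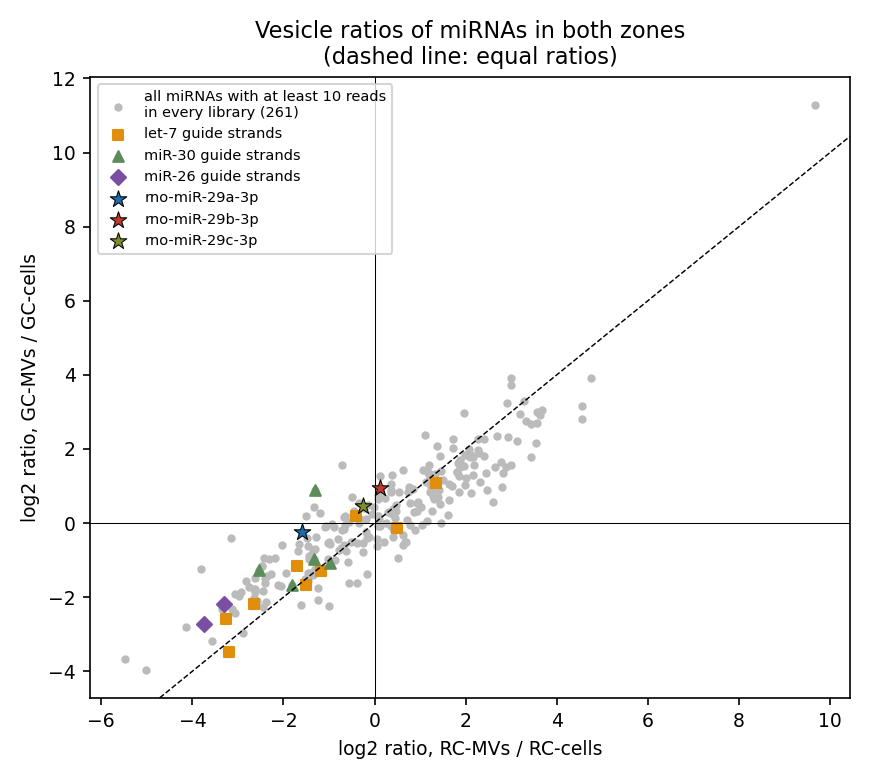
Log2 ratio of RC-MVs to RC-cells (x axis) against log2 ratio of GC-MVs to GC-cells (y axis) for 261 miRNAs with at least 10 reads in every library (grey), with guide strands of let-7, miR-30 and miR-26 and the 3 miR-29 members marked. The miR-29 members lie above the dashed line of equal ratios, rno-miR-29a-3p at -1.60 and -0.23, and so do both miR-26 members, 4 of 5 miR-30 and 4 of 9 let-7 strands and 132 of the 261 miRNAs.

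Within the family, the vesicle libraries held relatively more rno-miR-29b-3p than the cell libraries did. This comparison uses 2 counts of the same library and is free of the total, though not of base composition. Per 100 reads of rno-miR-29a-3p there were 1.70 reads of rno-miR-29b-3p in RC-cells (1.55 to 1.86) and 5.59 in RC-MVs (4.48 to 6.89), a 3.29-fold difference (2.59 to 4.14). In the growth zone there were 2.06 in GC-cells (1.90 to 2.23) and 4.69 in GC-MVs (3.98 to 5.49), a 2.27-fold difference (1.89 to 2.72). After the GC correction these differences were 6.57-fold and 4.52-fold. Both vesicle libraries were above both cell libraries without overlap of the intervals, and the vesicles of the zones overlapped each other (ratio 1.19, 0.905 to 1.56). rno-miR-29c-3p per rno-miR-29a-3p gave ratios of vesicles to cells of 2.54 (0.775 to 6.52) and 1.63 (0.702 to 3.35) in the resting and the growth zone, both with intervals that included 1. The paper's list of PCR array differences between RC-MVs and RC-cells holds rno-miR-29b-3p, as lower in RC-MVs, but not rno-miR-29a-3p.

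**Figure D3:**
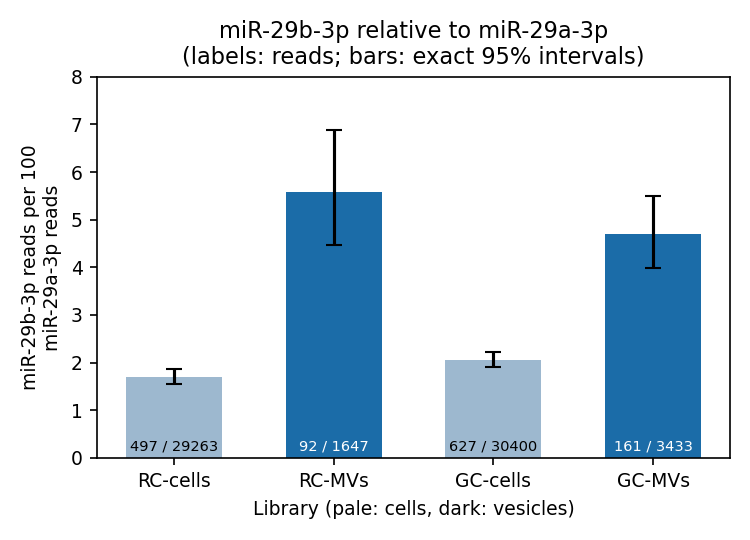
Reads of rno-miR-29b-3p per 100 reads of rno-miR-29a-3p in each library (bars from 0), with both read counts at the foot and exact 95% intervals for counting error. The vesicle libraries, at 5.59 and 4.69, were above the cell libraries, at 1.70 and 2.06.

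The 5p arms of the precursors, usually the strands that are discarded when the miRNA is loaded, were scarce in all libraries. miR-29a-5p had 53 and 49 reads in the cells of the resting and the growth zone and 21 and 15 reads in their vesicles. The vesicle share was 2.33-fold above the cell share in the resting zone (1.33 to 3.93) and 2.31-fold above it in the growth zone (1.20 to 4.19). The 3p partner was lower in both vesicle libraries before the GC correction, which turned its growth zone ratio from 0.852 to 1.38. Of the reads from both arms of Mir29a, the 5p arm made up 0.181% in RC-cells (exact interval 0.135 to 0.236), 1.26% in RC-MVs (0.781 to 1.92), 0.161% in GC-cells (0.119 to 0.213) and 0.435% in GC-MVs (0.244 to 0.716). The vesicle libraries were thus above the cell libraries, by 7.04-fold in 5p reads per 3p read in the resting zone (4.02 to 11.9) and 2.71-fold in the growth zone (1.41 to 4.92). The remaining 5p arms had at most 18 reads. In the vesicles miR-29b-1-5p had 6 resting zone and 0 growth zone reads. In GC-MVs 3 reads would be 0.000305% and GC-cells stood at 0.000148%, so a lower share in GC-MVs was not detectable at this depth. miR-29c-5p had 18 reads from RC-cells, 14 from GC-cells, 3 from RC-MVs and 1 from GC-MVs.

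Base composition moved with the vesicle ratios across all miRNAs. The GC content of the mature strand was 40.9% for rno-miR-29a-3p, 34.8% for rno-miR-29b-3p and 36.4% for rno-miR-29c-3p, and the median miRNA was at 47.8%. Where a miRNA had a sequence and 10 or more reads on both sides, GC content and the log2 ratio of vesicles to cells had a Spearman rho of 0.56 in the resting zone (265 miRNAs) and 0.51 in the growth zone (251 miRNAs). This is a description across miRNAs, which share the same libraries. In the resting zone, 37 of the 58 other miRNAs with a GC content no higher than that of rno-miR-29a-3p were at least 2-fold lower in the vesicles, with a median log2 ratio of -1.51, and 28 of them lay below rno-miR-29a-3p at -1.60. In the growth zone their median was -1.16 over 60 miRNAs, of which 40 lay below rno-miR-29a-3p at -0.23.

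Among AU-rich miRNAs, rno-miR-29b-3p stood high in the vesicles. Of the 12 other miRNAs with a GC content no higher than its own in the resting zone, 10 had a lower ratio of vesicles to cells. In the growth zone this was so for 11 of 13. rno-miR-29b-3p, with the lower GC content, thus had a higher vesicle ratio than rno-miR-29a-3p in both zones, opposite to the direction across all miRNAs. Its order against rno-miR-29c-3p was not resolved, with vesicle ratios of the latter 0.772 (0.230 to 2.05) and 0.715 (0.303 to 1.51) times its own. Only these 12 and 13 miRNAs reach so low a GC content, so the curve behind its corrected ratios is thinly filled there.

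**Figure D4:**
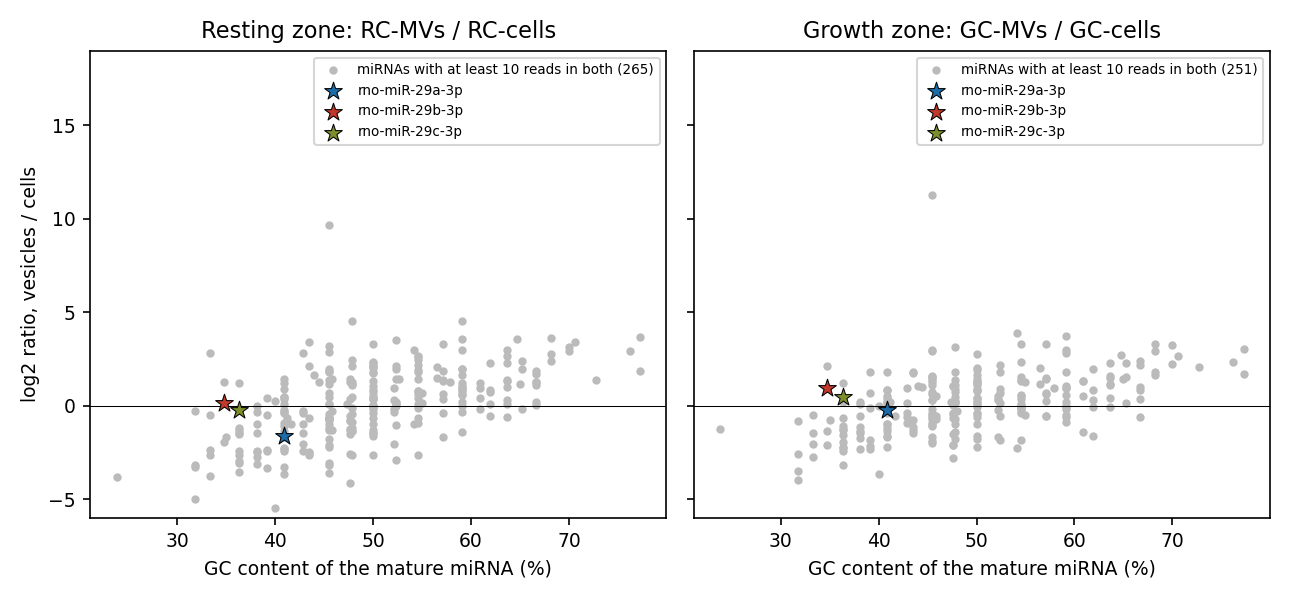
Log2 ratio of vesicles to cells against the GC content of the mature strand for miRNAs with 10 or more reads on both sides (grey), in the resting zone (left) and the growth zone (right), with the miR-29 members as stars. rno-miR-29a-3p at 40.9% GC lies among its neighbours in the resting zone, and rno-miR-29b-3p at 34.8% lies above most of them in both zones. rno-miR-29c-3p is drawn although it had fewer than 10 reads in the vesicles.

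Other conserved families of guide strands, let-7, miR-30 and miR-26, were taken for comparison. The sum of the miR-30 guide strands was 2.53-fold lower in the vesicles of the resting zone (2.47 to 2.58) and 2.28-fold lower in those of the growth zone (2.23 to 2.33). The let-7 strands summed to 1.88-fold (1.86 to 1.89) and 2.10-fold lower (2.08 to 2.12), with 6 of 9 called lower and 1 called higher in each zone, beside 30.5% lower and 33.7% higher of all miRNAs in the resting zone and 25.2% and 32.0% in the growth zone. miR-26a-5p and miR-26b-5p together were 10.1-fold (9.47 to 10.7) and 4.69-fold lower (4.46 to 4.93). The miR-29 sum, at 2.91-fold and 1.14-fold lower, lay nearest to the miR-30 sum in the resting zone and was nearer to the cells than each of the 3 families in the growth zone. This placement holds for uncorrected ratios. With the GC correction the vesicle ratios in the resting and the growth zone were 0.815 and 1.48 for the miR-29 sum, 1.22 and 0.813 for let-7 and 0.242 and 0.369 for miR-26, so that let-7 was nearer to its cells than miR-29 in the growth zone. For miR-30 the correction is void, as 3 of 5 strands had a sequence. Between the vesicles of the zones, the miR-29 sum was 2.33-fold lower in RC-MVs, the miR-26 sum 1.65-fold lower and the miR-30 sum 1.13-fold lower, and the let-7 sum was 1.25-fold higher. With the GC correction the ratio of RC-MVs to GC-MVs was 0.553 for miR-29, 0.785 for miR-26 and 1.56 for let-7, so that none was 2-fold. Single strands went beyond their sums, as 2 of 5 miR-30 strands were called lower in RC-MVs, miR-30b-5p (log2 ratio -2.30) further than each miR-29 member and miR-30c-5p (-1.05). Of the 9 let-7 strands 0 were called lower and 1 higher, and of the 2 miR-26 strands 0 were called, beside the background of 14.4% lower and 24.7% higher in this comparison. The intervals of these sums did not overlap that of miR-29, but no spread between libraries of one group was available and the differences between families were not tested.

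Among 18 other miRNAs known for cartilage or for matrix genes, 14 had reads in both resting zone libraries, and 7 of them were called lower and 1 higher in RC-MVs, where the background was 30.5% lower and 33.7% higher. In the growth zone it was 5 lower and 1 higher of 16, the lower share being near the background of 25.2% and the higher share below that of 32.0%. miR-140-3p, the miRNA that marks chondrocytes, was the one called higher in the resting zone (log2 ratio 1.31), and miR-140-5p, from the other arm of the same precursor, was the lowest (-3.07). miR-21-5p, a miRNA of proliferating and fibrotic tissue, had log2 ratios of -1.31 and -1.23 in the resting and the growth zone. miR-143-3p, which is typical of mesenchymal cells, had 0.07 and 0.65. Of the members, rno-miR-29a-3p was close to miR-21-5p in the resting zone and apart from it in the growth zone.

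The miRNAs with the pattern most like each member were found by the root-mean-square difference of log2 percents, each centred on its own mean over the 4 libraries. For rno-miR-29a-3p these were miR-106b-5p (0.125), miR-92a-3p (0.162) and miR-17-5p (0.224), of 260 candidates with a median of 0.966. miR-92a-3p stood at 0.0404% in RC-cells, 0.0347% in GC-cells, 0.0235% in GC-MVs and 0.0127% in RC-MVs, the order of libraries of rno-miR-29a-3p. The other two had another order, as miR-106b-5p was highest in GC-cells (0.00526%) and miR-17-5p in GC-MVs (0.00967%), and all 3 were lowest in RC-MVs. For rno-miR-29b-3p they were miR-1839-5p (0.163), miR-324-5p (0.169) and miR-132-3p (0.172). For rno-miR-29c-3p they were miR-93-5p (0.113), miR-145-3p (0.128) and miR-10b-5p (0.191), a likeness that rests on 5 and 9 vesicle reads. rno-miR-29a-3p and rno-miR-29b-3p were thus not among the 3 nearest miRNAs of each other, and rno-miR-29c-3p had too few reads to be a candidate.

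**Figure D5:**
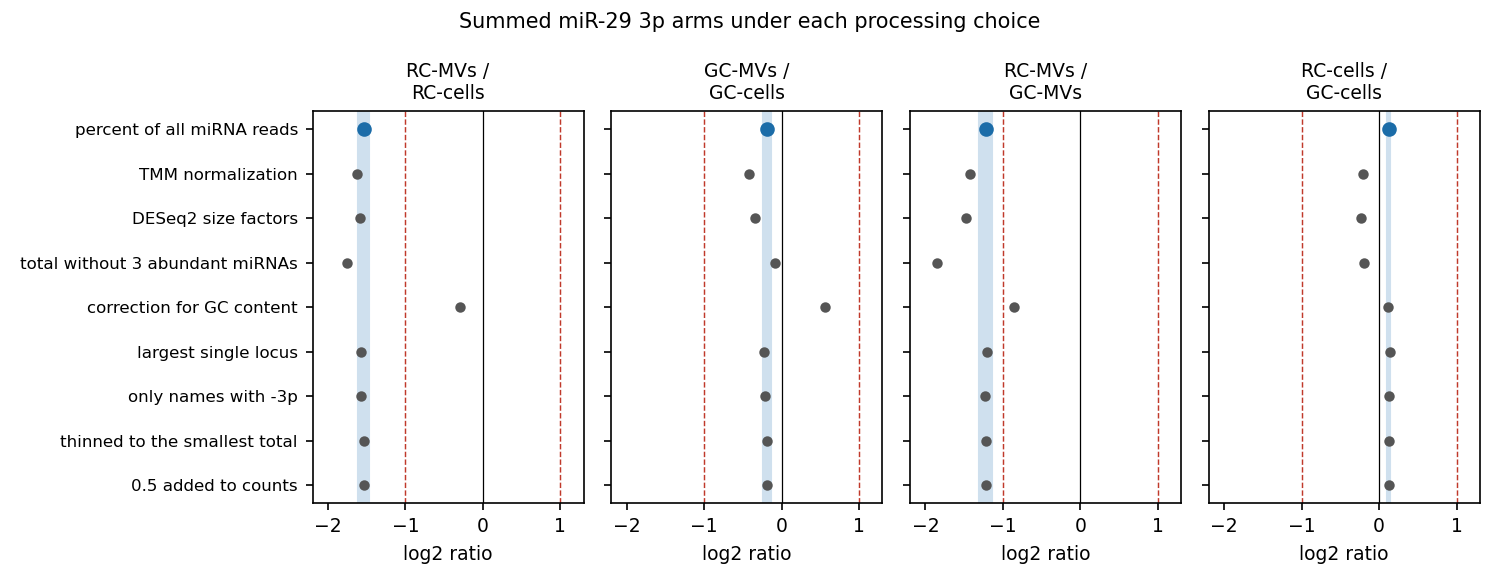
Log2 ratio of the summed miR-29 members in the 4 comparisons with percents of all miRNA reads (blue, shaded 95% counting interval) and under 8 alternative processing choices (grey); dashed lines mark 2-fold. In the resting zone the vesicle ratio was beyond 2-fold in each alternative except the correction for GC content, where it was 0.815, and the ratio of RC-MVs to GC-MVs likewise, where it was 0.553.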

How the data were processed

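The authors sequenced small RNA on an Illumina HiSeq, used Bowtie2 for alignment to Rnor_6.0 and tabulated miRNAs with miARma-Seq. The deposited values are raw read counts per annotated miRNA locus. Tool versions, trimming and how reads with several matching loci were counted are not given in the sources used here. The 774 loci have 740 names, or 739 after the 2 loci of miR-29b were joined, and reads of equal names were summed. Counts were turned into percents of the miRNA total of the library, and ratios of percents were called at 2-fold where a miRNA had 1 or more reads on both sides. Intervals are Wilson or exact binomial for shares and exact Clopper-Pearson for ratios of percents. Where reads of 1 strand per reads of another were compared between libraries, they are conditional intervals of the odds ratio. The ratios of percents with their intervals, the 2-fold call and the interval of the difference between zones were tested on simulated data. The other calculations, among them the GC correction, were not. The alternatives were TMM normalization (edgeR 4.0.16), size factors (DESeq2 1.42.0), totals that leave out miR-143-3p, miR-22-3p and miR-21-5p, the largest single locus of a name, thinning to the smallest total (100 draws), 0.5 added to each count, and a lowess correction for GC content (statsmodels 0.14.6, fraction 0.5), for which 90.8% and 91.6% of miRNAs in the resting and the growth zone had a sequence. Counting only names with -3p, and the GC correction of the difference between zones, of the ratio within the family, of the other families and of the background shares, were added after the data were seen. The miRNAs named are the members, the 5p arms of their precursors, the 3 names most like each member, and fixed lists of 3 families, of cartilage and matrix miRNAs and of cell type markers. Members and lists were chosen with earlier results of these data known. Of the red cell markers, miR-486 was not found under that name. Leukocyte markers summed to between 0.00107% and 0.0314% and muscle markers to between 0.000368% and 0.00661% of miRNA reads. The PCR array was not used here. Python 3.11.15 with scipy 1.17.1, pandas 2.3.3 and matplotlib 3.10.9, and R 4.3.3, were used.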

Additional observations from a re-analysis of the deposited data

Results flagged for a closer look

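The share of rno-miR-29c-3p was 0.840 times that of the cells in resting zone vesicles and 1.39 times in growth zone vesicles, so that the zones lay on opposite sides of 1. The resting zone ratio was 0.606 of that of the growth zone, with an interval from 0.187 to 1.96. The vesicle libraries held 5 and 9 reads, both ratios had intervals that included 1, and the difference was not tested. After the GC correction the zones were on the same side of 1 (3.13 and 3.70, both past 2-fold). Thinning to the smallest total gave 1.03 and 1.65. These are means of ratios over draws with few reads, which run high, so no side of 1 is read from them.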

How the results depend on the processing

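Each group had 1 library, so that groups shared fewer than 2 replicate numbers, and no analysis paired by replicate number was run. A fit of vesicles against cells that takes the zones as pairs was possible but was not run. The summed family kept its direction for RC-MVs against RC-cells, with ratios of 0.323 (TMM), 0.297 (totals without the 3 abundant miRNAs) and 0.815 (GC correction), beside 0.344. For RC-MVs against GC-MVs, beside 0.429, TMM gave 0.373, size factors 0.359, totals without the 3 miRNAs 0.277 and the GC correction 0.553. For GC-MVs against GC-cells, beside 0.875, these gave 0.748, 0.790, 0.939 and 1.48, the last in the opposite direction. For RC-cells against GC-cells, beside 1.09, the first 3 gave 0.864, 0.849 and 0.875, all in the opposite direction. The vesicle ratio of the resting over that of the growth zone was 0.393, and 0.432, 0.423, 0.317 and 0.551 in the same order. TMM moved the log2 ratios of all miRNAs by -0.34 between the cells and by -0.20 between the vesicles of the zones. Of 104 values of single members under the alternatives, 77 stayed inside their counting interval and 17 moved to the other side of 2-fold. For rno-miR-29b-3p in GC-MVs against GC-cells, which was just under 2-fold, the ratio ranged from 1.66 (TMM) to 6.22 (GC correction). The cause of these shifts was not tested. Depth limits rno-miR-29c-3p and the 5p arms, and older names were read as 3p arms.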
